A study of Mus musculus with 24 samples.

Results

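Cholesterol was added to a cholic acid diet in 1 comparison of a mouse liver study, and the livers on the combined diet were set against livers on cholic acid alone. The combined diet (Chol_CA) held 2% cholesterol with cholic acid and was represented by 4 libraries. The diet without cholesterol (CA) held cholic acid and also had 4 libraries. All mice were wild-type C57BL/6, entered the diets at an age of 8 to 10 weeks and stayed on them for 8 weeks. The comparison therefore used 8 of the 20 libraries matched to a diet. After a filter on low counts 12595 of the 34436 gene symbols in the table were tested. The other libraries, used for the error estimate and as a backdrop, came from high sucrose with 2% cholesterol (HS_Chol, 3 libraries), high sucrose (HS, 5 libraries) and normal chow (NC, 4 libraries). The labels of 1 HS sample conflict, with high sucrose in the title and normal chow as the diet; the title was followed, and which HS library it is cannot be told. Whole liver was sequenced as total RNA, so each value is an average over hepatocytes and all other liver cells. In such samples fewer cells of a type and less RNA per cell cannot be told apart. The labels give neither the amount of cholic acid nor whether each library came from a separate animal, and p-values here measure only the spread between these samples.

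Cholic acid is a primary bile acid. It helps the gut take up cholesterol, and in the liver it is a ligand of the nuclear receptor FXR, which represses the enzymes that make bile acids. When cholesterol is in surplus, SREBP2, the factor that drives cholesterol synthesis, is held back in the endoplasmic reticulum and oxysterols activate LXR, which raises sterol export genes. Other nuclear receptors of the hepatocyte, such as CAR and PXR for foreign compounds and bile acids and PPARalpha for fatty acids, drive large families of cytochrome P450 and oxidation genes. Diets of cholesterol with cholic acid are long used in mice to provoke liver inflammation and fibrosis.

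Library depth was 6750266 to 8886641 reads in Chol_CA and 7850495 to 10244277 reads in CA. Levels are given as CPM, reads of a gene per 1000000 reads of the scaled library. Libraries also differed in a technical measure, the trend of counts with transcript length, which was negative in Chol_CA_0, Chol_CA_1 and CA_0 and positive in Chol_CA_2, Chol_CA_3, CA_1, CA_2 and CA_3. The slope was lowest in Chol_CA_1, at -0.311, where mitochondrial genes took 4.04% of reads, against 7.99 to 9.49% in the other Chol_CA libraries and 8.97 to 9.97% in CA. Chol_CA_0 and Chol_CA_1 also held the highest levels of most inflammatory genes, so the counts of the inflammatory lists are given with and without these libraries. No pair of libraries looked like a duplicate deposit. Xist, which females express, stayed at or under 0.132 CPM in Chol_CA and 0.118 CPM in CA, while the Y-linked Ddx3y had 24.4 to 69.8 CPM in Chol_CA and 47.6 to 84.3 CPM in CA, a male pattern in all 8 libraries.

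Adding cholesterol to cholic acid was followed by higher levels of 1693 genes (13.4% of those tested) and lower levels of 983 genes (7.8%) at an adjusted p under 0.05 by edgeR's quasi-likelihood test. Among genes that rose, the median log2 change was 1.39, 407 changed at least 4-fold and 95 at least 8-fold. Among genes that fell, the median size was 0.80, 110 changed at least 4-fold and 53 at least 8-fold. The median of all genes tested was 0.02. In 2435 genes (19.3%) the CPM values of the diets did not overlap, among them 1260 of the genes that rose and 696 of those that fell. With libraries left out, the numbers ran from 960 higher and 718 lower without CA_2 to 1939 higher and 1279 lower without CA_0, and without both Chol_CA_0 and Chol_CA_1 they were 716 and 522. Among the libraries with a positive length trend alone, 2 of Chol_CA against 3 of CA, 1724 genes were higher and 1716 lower.

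**Figure D1:**
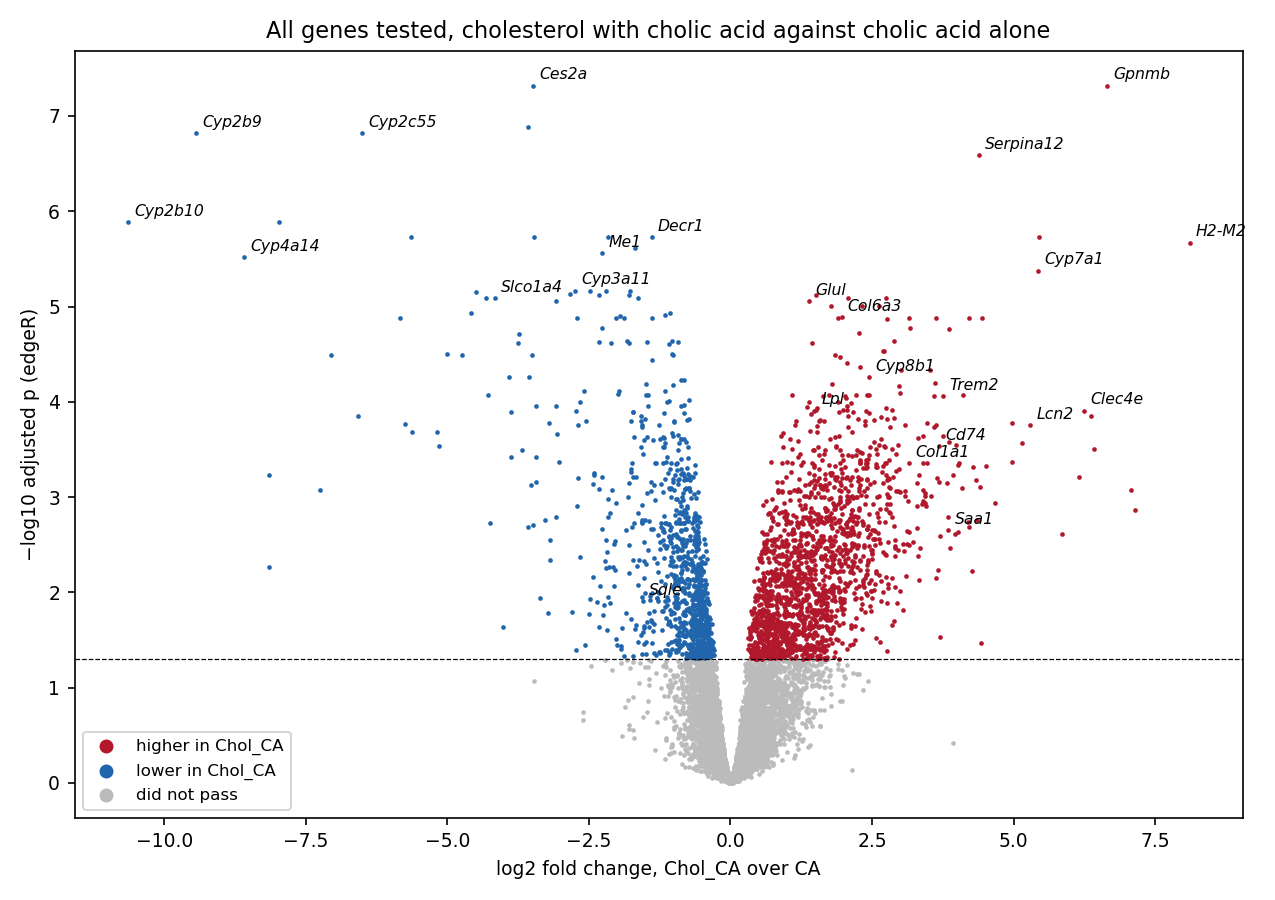
Each point is 1 of the 12595 genes tested, by its log2 fold change (Chol_CA over CA, horizontal) and the negative log10 of its adjusted p (vertical). Red points are the 1693 genes higher and blue points the 983 genes lower in Chol_CA, grey points did not pass, and the dashed line is the threshold of 0.05. Gpnmb and Ces2a stand highest among the labelled genes, and Cyp2b10 lies farthest to the left.

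Bile acid synthesis showed its largest log2 change in Cyp7a1. Cyp7a1, the 7-alpha-hydroxylase that sets the pace of the classic pathway (GRCm38 chr4:6265612-6275633, minus strand), had 27.0, 22.5, 11.7 and 30.1 CPM in the Chol_CA libraries, against 0.118, 0.236, 1.38 and 0.212 CPM in the CA libraries. Every Chol_CA value lay above every CA value, and NC livers averaged 53.8 CPM. The log2 fold change was 5.43 ± 0.56 (SE, adjusted p = 4.21e-06), and 6.75 without CA_2, the highest CA library. Cyp8b1, the 12-alpha-hydroxylase that directs synthesis towards cholic acid (chr9:121914356-121916305, minus strand), had 9.67, 11.8, 4.40 and 5.52 CPM in Chol_CA, against 0.705, 1.18, 1.58 and 2.12 CPM in CA. Its groups did not overlap either, and its log2 fold change was 2.45 ± 0.33 (adjusted p = 5.47e-05), but the level in Chol_CA stayed far below the NC mean of 621 CPM. The oxysterol 7-alpha-hydroxylase Cyp7b1 was also higher, at 151, 234, 168 and 226 CPM in Chol_CA, against 69.6, 19.5, 29.9 and 22.1 CPM in CA.

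Of the 16 genes of bile acid synthesis and conjugation that were tested, 6 rose and 3 fell, with a median log2 change of 0.02, equal to that of all genes. The falls were in Akr1d1, the 5-beta-reductase of the sterol ring (log2 fold change -1.56 ± 0.24, adjusted p = 0.000182), in the oxysterol hydroxylase Cyp39a1 and in the peroxisomal enzyme Hsd17b4. The conjugating enzymes Baat (log2 fold change 0.08) and Slc27a5 (-0.24) did not pass the test.

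Transporters and feedback genes of bile acids moved mostly down, with 8 of 17 tested members lower, 2 higher and a median of -0.80. The number lower was 5 without CA_1 and 5 without CA_2. Slco1a4, an organic anion importer, had 22.4, 7.11, 16.1 and 11.3 CPM in Chol_CA, against 119.8, 206, 438 and 249 CPM in CA. All 4 Chol_CA libraries lay below the lowest CA library (log2 fold change -4.16 ± 0.46, adjusted p = 8.21e-06). Slco1a4 averaged 36.1 CPM in NC, 14.0 CPM in HS and 13.2 CPM in HS_Chol, so CA stood far above the other diets. Its neighbour in the family, Slco1a1, moved the other way, with 169, 95.9, 184 and 373 CPM in Chol_CA, against 113, 11.4, 22.7 and 1.70 CPM in CA, where the ranges overlapped (2.46 ± 0.69, adjusted p = 0.0141). The basolateral exporters fell as well, Abcc4 by 3.02, Abcc3 by 1.56 and Ostb, the older name of Slc51b, by 1.51 on the log2 scale. Abcb11, the canalicular bile salt pump and an FXR target, had a log2 fold change of -0.91 ± 0.29 (adjusted p = 0.0285). Nr0b2, the FXR target SHP that represses Cyp7a1, had 72.3, 71.2, 41.5 and 45.5 CPM in Chol_CA, against 72.6, 105, 108 and 116 CPM in CA. Its log2 fold change of -0.80 ± 0.25 passed (adjusted p = 0.0289), but not when CA_1, CA_2, CA_3, Chol_CA_2 or Chol_CA_3 was left out (values of -0.65 to -0.80).

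Cholesterol synthesis genes were lower in Chol_CA. None of the 24 tested members of the SREBP2 list rose, 12 fell and the median was -0.84. The number lower stayed between 8 and 16 when single libraries were left out, and was 4 without both Chol_CA_0 and Chol_CA_1. Fdft1, squalene synthase, had 14.2, 11.5, 16.3 and 17.1 CPM in Chol_CA, against 28.0, 40.2, 54.1 and 52.9 CPM in CA. The groups did not overlap (log2 fold change -1.57 ± 0.24, adjusted p = 0.000176), although Fdft1 shares exon sequence with Ctsb on the opposite strand and the counted strand is not stated. Sqle, squalene epoxidase, was near the bottom in both diets, with 1.19, 0.917, 2.05 and 1.30 CPM in Chol_CA, against 1.88, 5.65, 1.97 and 6.80 CPM in CA and an NC mean of 67.7 CPM. Its ranges overlapped, and its log2 fold change of -1.54 ± 0.42 (adjusted p = 0.0124) no longer passed without CA_3 (-1.22). Insig1, which retains SREBP in the endoplasmic reticulum, had 26.5, 20.1, 70.3 and 96.1 CPM in Chol_CA, against 71.8 to 107 CPM in CA. It did not pass (log2 fold change -0.71), but it did without Chol_CA_3 (-1.21). The value was -0.43 without Chol_CA_1 and -0.04 without both Chol_CA_0 and Chol_CA_1, and neither passed.

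Hmgcs1, the synthase that starts the mevalonate pathway, had 52.1, 44.5, 58.8 and 56.0 CPM in Chol_CA, against 121, 113, 106 and 159.7 CPM in CA. Each Chol_CA value was below each CA value (log2 fold change -1.24 ± 0.28, adjusted p = 0.0035). Of the 16 tested cholesterol genes with a RefSeq promoter window (250 bases before to 50 after the start), Hmgcs1 was the only match to the sterol response element letters TCACNCCAC, searched on both strands. Those letters were in 1.24% of all 32851 promoter windows. The stretch is shown because it holds the only match to these letters among these genes, which is a description and not a test of binding. It lies at GRCm38 chr13:119690154-119690282 on the plus strand, with the match in capitals starting 137 bases before the start site.
Hmgcs1: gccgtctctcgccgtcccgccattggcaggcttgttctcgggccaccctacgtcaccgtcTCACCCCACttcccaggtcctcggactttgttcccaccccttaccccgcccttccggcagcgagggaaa

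Sterol export genes moved the opposite way from synthesis genes. In the LXR list 6 of 13 tested members rose, 1 fell and the median was 0.60. The number that rose was 4 without CA_2, CA_3, Chol_CA_0 or Chol_CA_3. Abcg1, a sterol exporter prominent in macrophages, had 62.9, 75.8, 45.9 and 39.0 CPM in Chol_CA, against 15.9, 19.3, 15.5 and 19.7 CPM in CA, with no overlap (1.67 ± 0.29, adjusted p = 0.000568). Abcg5, which with Abcg8 exports sterols into bile, had 315, 252, 299 and 398 CPM in Chol_CA, against 217, 229.5, 188 and 199 CPM in CA. That gap was narrow (0.60 ± 0.18, adjusted p = 0.0224), it was lost without CA_2 (0.51), CA_3 (0.53), Chol_CA_0 (0.56) or Chol_CA_3 (0.43), and Abcg5 overlaps Abcg8 on the opposite strand. Lpl, lipoprotein lipase, was higher by 1.503 ± 0.22 (adjusted p = 0.000122), with 463, 436, 306 and 225 CPM in Chol_CA, against 122, 172, 116 and 95.2 CPM in CA. Abca1, the exporter that loads HDL, was just outside the threshold (0.65 ± 0.23, adjusted p = 0.0511) and inside it without CA_1 (0.76) or Chol_CA_1 (0.81). Lpcat3, a phospholipid remodelling enzyme, was the member that fell (-0.52 ± 0.14, adjusted p = 0.00865).

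The genes that esterify cholesterol and release it from lysosomes moved in both directions. Soat1, the acyltransferase typical of macrophages, had 25.96, 32.2, 15.9 and 12.9 CPM in Chol_CA, against 7.99, 6.48, 3.95 and 4.78 CPM in CA (1.91 ± 0.37, adjusted p = 0.00117). Soat2, the hepatocyte and intestinal acyltransferase, had 46.5, 30.3, 38.2 and 36.6 CPM in Chol_CA, against 63.5, 105, 134 and 120.3 CPM in CA (-1.48 ± 0.18, adjusted p = 2.34e-05). Both pairs of ranges were apart, in opposite directions. The carboxylesterase Ces1d, a hepatocyte lipid hydrolase, fell by 2.49 ± 0.27 on the log2 scale (adjusted p = 6.81e-06). In all, 2 of 12 tested members rose and 3 fell, where 13.4% of all genes tested rose and 7.8% fell. The median was -0.12, and without CA_2 or Chol_CA_1 the number that rose was 1.

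Fatty acid synthesis did not move as a block. Of 22 tested members 2 rose and 7 fell, with a median of -0.44, where 13.4% of all genes tested rose and 7.8% fell. Without CA_2, CA_3 or Chol_CA_3 the number that rose was 1, and without both Chol_CA_0 and Chol_CA_1 the number that fell was 2. Srebf1, counted in the LXR list and the factor that drives these genes, had 216, 199.7, 433 and 759 CPM in Chol_CA, against 209, 156, 102 and 102 CPM in CA. The lowest Chol_CA library lay inside the CA range, and the log2 fold change was 1.4995 ± 0.36 (adjusted p = 0.00522). Fasn, fatty acid synthase, ranged from 109 to 888 CPM in Chol_CA and from 273 to 523 CPM in CA. Scd1, the main hepatic desaturase, ranged from 7432 to 30622 CPM in Chol_CA and from 13215 to 26822 CPM in CA. In both genes the Chol_CA range enclosed the CA range, with the highest values in Chol_CA_3 and the lowest in Chol_CA_1, and neither passed (log2 fold changes of -0.10 ± 0.44 and 0.06 ± 0.34). Leaving out Chol_CA_3 brought Fasn to -1.02 and past the threshold. Scd2, a desaturase found mainly outside hepatocytes, rose by 1.57 ± 0.26 (adjusted p = 0.000363). Me1, malic enzyme, had 17.6, 13.4, 15.8 and 17.4 CPM in Chol_CA, against 79.5, 59.7, 78.1 and 91.3 CPM in CA, a fall of 2.26 ± 0.22 (adjusted p = 2.74e-06) with groups far apart.

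Lipid droplet proteins were lower in 6 of 12 tested genes and higher in none, with a median of -0.62. Plin2, the coat protein of hepatocyte droplets, had 304, 207, 206 and 169.7 CPM in Chol_CA, against 624.7, 361, 324 and 448 CPM in CA (-0.99 ± 0.20, adjusted p = 0.00154). Without both Chol_CA_0 and Chol_CA_1, 3 members were lower.

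Xenobiotic metabolism, driven by CAR and PXR, was lower in Chol_CA nearly throughout the list. Of 21 tested members 17 fell, none rose and the median was -2.10. Leaving out single libraries gave 15 to 18. The summed level of the list was 4134 to 6312 CPM in Chol_CA, 20176 to 44329 CPM in CA and 7804 to 9464 CPM in NC. By this sum CA lay far above NC, and Chol_CA lay below NC. Cyp2b10, the classic CAR target (chr7:25897620-25926624, plus strand), had 0.132, 0, 0.195 and 0 CPM in Chol_CA, against 17.5, 65.2, 314 and 244 CPM in CA. This was 3 reads over the Chol_CA libraries against 6183 over the CA libraries, a ratio of 2016-fold with a counting interval of 690 to 9779, and the NC mean was 2.48 CPM. CA_0 was the lowest CA library by far but remained above every Chol_CA library. Its close relative Cyp2b9 had 0.397, 0.229, 0.0977 and 0.216 CPM in Chol_CA, against 24.6, 121, 291 and 232 CPM in CA and 0.522 CPM on average in NC. Reads of Cyp2b genes could be split between near copies. Cyp3a11, the main PXR-driven P450, had 2820.0, 1622, 2827 and 1806 CPM in Chol_CA, against 12062, 13596, 19771 and 15594 CPM in CA (-2.75 ± 0.29, adjusted p = 6.81e-06). The NC mean of 3615 CPM lay between the diets. Ces2a, a carboxylesterase, had similar values across Chol_CA, with 121, 110.4, 120.5 and 125 CPM in Chol_CA, against 730.3, 1094, 2045 and 1480.0 CPM in CA (-3.49 ± 0.24, adjusted p = 4.8e-08). Cyp2c55 fell by 6.51 ± 0.51 and Cyp2c29 by 3.57 ± 0.27 on the log2 scale, and Por, the reductase that feeds electrons to all microsomal P450s, by 2.10 ± 0.26. In NC, Ces2a averaged 268 CPM and Cyp2c55 18.3 CPM, in both genes between the means of Chol_CA and CA. The receptor genes themselves changed less, with Nr1i2 (PXR) lower by 1.16 and Nr1i3 (CAR) at -0.47, which did not pass.

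Fatty acid oxidation and the wider set of PPARalpha targets fell in 32 of 41 tested genes and rose in 1, with a median of -0.96. Leaving out single libraries gave 30 to 33, and leaving out both Chol_CA_0 and Chol_CA_1 gave 31. Cyp4a14, a fatty acid omega-hydroxylase (chr4:115486200-115496142, minus strand), had 4.77, 1.83, 1.56 and 1.41 CPM in Chol_CA, against 763, 684, 1377 and 809 CPM in CA. NC livers averaged 639.6 CPM, so the low side was the combined diet (-8.60 ± 0.86, adjusted p = 3.02e-06). Cyp4a10 followed, with 8.35, 4.01, 2.44 and 1.84 CPM in Chol_CA, against 220.0, 124, 319 and 148 CPM in CA, where near copies of Cyp4a genes could share reads. Ehhadh, the bifunctional enzyme of peroxisomal oxidation, had 256, 109.6, 168 and 168 CPM in Chol_CA, against 891, 706, 848 and 708 CPM in CA (-2.17 ± 0.20, adjusted p = 1.86e-06). The mitochondrial steps fell less, with Decr1 lower by 1.39 ± 0.13 (adjusted p = 1.86e-06), Hadhb by 1.20 and Acadm by 0.82. Fgf21, a PPARalpha-induced hormone of fasting, had 2.38, 1.60, 1.27 and 0.866 CPM in Chol_CA, against 8.35, 9.77, 140.1 and 56.8 CPM in CA. The groups were apart but CA_2 carried much of the size, with a log2 fold change of -5.15 in all libraries and -4.08 without it. Ppara itself (-0.26) and the rate-limiting carnitine transferase Cpt1a (-0.49) did not pass. Ucp2, an uncoupling protein also abundant in macrophages, was the member that rose (2.00 ± 0.44, adjusted p = 0.00312), and it did not pass without Chol_CA_0 and Chol_CA_1 (0.82).

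Glutathione and NRF2 genes fell in 14 of 23 tested members and rose in 3, with a median of -0.88. The number lower was 9 without CA_2 and 9 without Chol_CA_2. Ephx1, microsomal epoxide hydrolase, had 597, 485, 453 and 386 CPM in Chol_CA, against 984, 1038, 1789 and 1607 CPM in CA (-1.496 ± 0.20, adjusted p = 6.44e-05). Gstm3, a glutathione transferase also counted among the CAR targets, spread widely in both diets, with 1296, 774, 475 and 109.9 CPM in Chol_CA, against 1365, 3378, 6159.8 and 6476 CPM in CA. Hmox1, heme oxygenase, went up, with 132, 167, 59.3 and 62.1 CPM in Chol_CA, against 43.8, 26.1, 23.2 and 25.2 CPM in CA (1.83 ± 0.34, adjusted p = 0.000776). It is also made by macrophages that clear red cells.

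**Figure D2:**
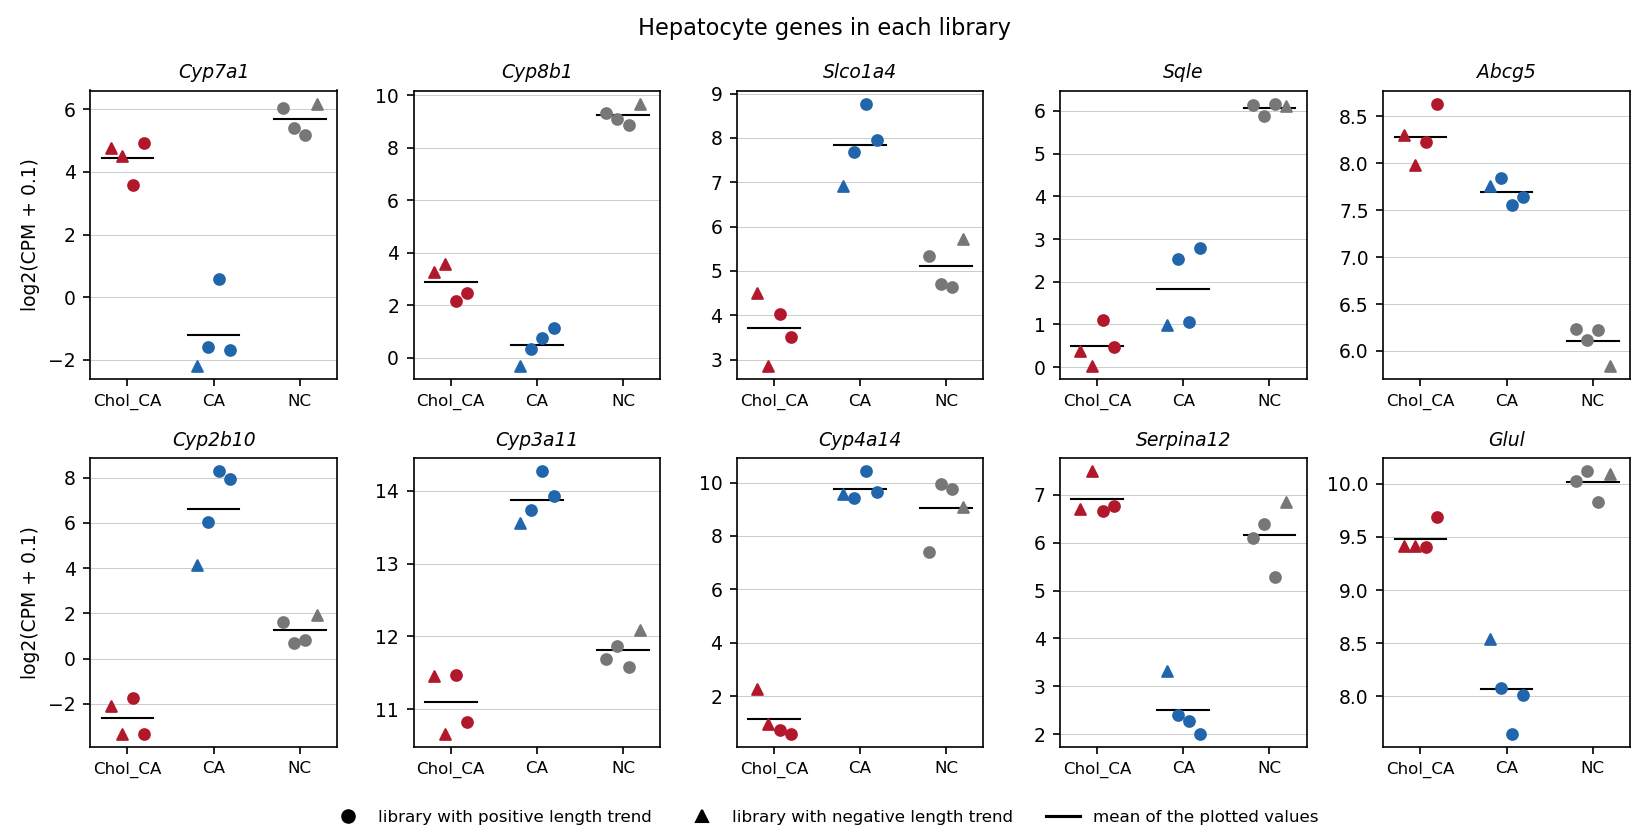
Each panel shows 1 gene as log2(CPM + 0.1) in each library, with Chol_CA left, CA in the middle and NC right, a bar at the mean of the plotted values and a triangle for libraries with a negative length trend. Cyp7a1, Cyp8b1, Serpina12 and Glul lie higher in Chol_CA than in CA, Slco1a4, Cyp2b10, Cyp3a11 and Cyp4a14 lie lower, and Sqle overlaps.

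Genes that differ between male and female liver split sharply. Among female-biased genes, 12 of the 14 tested were lower, but some of these members passed the filter on low counts only through the CA libraries, where they are high. In fits without CA_1, without CA_2 or without CA_3, 9 members were tested, 7 were lower, and the medians were -3.17, -2.89 and -3.06. Sult2a2, a sulfotransferase, had 0 reads in Chol_CA against 175 in CA, at least 57.1-fold lower in Chol_CA. Hao2, a peroxisomal oxidase, had 0 reads against 93 in CA, at least 30.3-fold lower. Cux2, a factor that represses male-biased genes in female mouse liver, had 0.530, 0.688, 0.195 and 0.649 CPM in Chol_CA, against 0.470, 8.83, 43.6 and 22.3 CPM in CA. CA_0 was as low as the Chol_CA libraries, and the other CA libraries were far above them (-5.18 ± 0.80, adjusted p = 0.000206). Cyp2a4, a steroid hydroxylase, had 1.46, 0.802, 0.195 and 0.325 CPM in Chol_CA, against 30.9, 100, 159 and 386 CPM in CA, with CA_0 the lowest CA library but far above Chol_CA. NC livers averaged 0.246 CPM, so for Cyp2a4 the high side was CA. Counts of this gene could mix with those of its paralog Cyp2a5. The summed level of the list was 43.6 to 78.8 CPM in Chol_CA, 150 to 1174 CPM in CA and 125 to 221 CPM in NC.

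Male-biased genes rose in 15 of 25 tested members and fell in 1, with a median of 1.70. Without CA_2 the number that rose was 10. Serpina12, the adipokine vaspin (chr12:104028769-104044443, minus strand), had 104, 180.4, 101.1 and 109 CPM in Chol_CA, against 9.87, 5.18, 4.74 and 3.93 CPM in CA, and NC averaged 76.6 CPM (4.38 ± 0.36, adjusted p = 2.58e-07). The Chol_CA libraries thus lay near NC and the CA libraries well below. Mup11, a major urinary protein of a family of near copies, had 25.7, 176, 15.4 and 35.1 CPM in Chol_CA, against 4.58, 0.942, 1.28 and 1.27 CPM in CA and 316 CPM on average in NC. Its log2 fold change was 4.97 ± 0.84 (adjusted p = 0.000433), and 3.66 without Chol_CA_1. Hsd3b5, a male-specific steroid enzyme, rose by 3.98 and Selenbp2 by 3.63. Keg1, a glycine acyltransferase relative, was the member that fell (-0.71 ± 0.24), with overlapping groups and a call lost without any 1 of 5 libraries.

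Zonation genes changed in part, where 13.4% of all genes tested rose and 7.8% fell. Of 18 tested pericentral genes 6 rose and 1 fell, with a median of 0.16. Glul, glutamine synthetase of the cells around the central vein (chr1:153899944-153909723, plus strand), had 684, 682, 678 and 824 CPM in Chol_CA, against 372, 269.5, 201 and 258 CPM in CA, with no overlap and an NC mean of 1037 CPM (1.38 ± 0.15, adjusted p = 8.76e-06). Slc1a2, a glutamate importer of the same cells, rose by 1.77 and the ammonium channel Rhbg by 1.66. Cyp2a5, a coumarin hydroxylase with near copies, was the pericentral gene that fell, and its groups overlapped at 69.2 to 438 CPM in Chol_CA and 234 to 2462 CPM in CA. Periportal genes rose in 1 and fell in 5 of 18 tested, with a median of -0.11. Agxt2l1, a phospholyase now called Etnppl, had the smallest p of these (-1.64 ± 0.33, adjusted p = 0.00147).

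Genes of hepatocyte identity gave few calls, where 13.4% of all genes tested rose and 7.8% fell. Of 22 tested, 2 rose (Cebpa and Foxa3, both lost without CA_2, CA_3, Chol_CA_0 or Chol_CA_3) and 1 fell, with a median of -0.06, and Hnf4a, the master factor of hepatocytes, did not pass (-0.24). Alb, albumin, was the gene that fell, with 42464, 28798, 44143 and 47214 CPM in Chol_CA, against 56121, 88749, 72486 and 74693 CPM in CA (-0.84 ± 0.16, adjusted p = 0.000897). The summed level of the list was 75783 to 87738 CPM in Chol_CA and 101951 to 129337 CPM in CA.

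Endoplasmic reticulum and integrated stress genes moved in both directions, with 5 of 23 tested higher, 6 lower and a median of 0.21. Several chaperones rose, as in Hspa5 (BiP), which had 572, 639, 718 and 801 CPM in Chol_CA, against 549, 399, 374 and 399 CPM in CA (0.66 ± 0.20, adjusted p = 0.0203). Several ATF4 targets fell, as in Asns, asparagine synthetase, which had 1.59, 1.15, 1.47 and 0.433 CPM in Chol_CA, against 3.17, 2.71, 25.3 and 20.8 CPM in CA (-3.49 ± 0.73, adjusted p = 0.00197). CA_2 and CA_3 were the high libraries for Asns. Without CA_2 the numbers were 1 higher and 3 lower, and without CA_3 none was higher.

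Many macrophage genes rose strongly. Gpnmb, a transmembrane glycoprotein of lipid-laden macrophages (chr6:49036546-49070929, plus strand), had 176, 165, 108 and 59.7 CPM in Chol_CA, against 0.940, 0.589, 2.07 and 1.27 CPM in CA and 0.212 CPM on average in NC. Chol_CA_3, the lowest of its diet, was still far above the highest CA library (6.66 ± 0.46, adjusted p = 4.8e-08). Trem2, the lipid-sensing receptor of the same cells, had 14.6, 21.3, 7.33 and 4.98 CPM in Chol_CA, against 1.18, 0.353, 1.18 and 0.744 CPM in CA (3.76 ± 0.53, adjusted p = 8.74e-05). Clec4e, the receptor Mincle, had 36.4, 61.2, 4.69 and 3.03 CPM in Chol_CA, against 0.588, 0.236, 0.197 and 0.319 CPM in CA. Here Chol_CA_0 and Chol_CA_1 stood well above the other Chol_CA libraries, and the log2 fold change of 6.25 ± 0.91 (adjusted p = 0.000124) was 3.51 without both. H2-M2, a non-classical MHC gene (chr17:37480851-37483552, minus strand), had 415 reads in Chol_CA against 1 in CA, a ratio of 424-fold with a counting interval of 75.7 to 16796.

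Of the 25 monocyte and lipid-associated macrophage markers, all tested, 23 rose, none fell and the median was 2.92. Leaving out single libraries gave 20 or more, leaving out both Chol_CA_0 and Chol_CA_1 gave 14, and the libraries with a positive length trend alone gave 20. The summed level of these markers was 709 to 3000.5 CPM in Chol_CA, 184 to 429.95 CPM in CA and 128 to 257 CPM in NC. Markers of resident Kupffer cells rose in 8 of 16, with a median of 1.16. Within that list Cd5l, a macrophage secreted protein, had 506, 703, 352 and 291 CPM in Chol_CA, against 179, 142, 72.4 and 137 CPM in CA (1.81 ± 0.39, adjusted p = 0.00281), and at 1.30 it did not pass without both Chol_CA_0 and Chol_CA_1. Clec1b passed as well, with overlapping groups (1.60 ± 0.35, adjusted p = 0.00257), while Clec4f (0.65) and Timd4 (0.44) did not pass. At an unadjusted p under 0.05 edgeR gave 9 members higher and 3 lower, and DESeq2 called 9 higher and 1 lower. No Kupffer marker was called higher by edgeR without both Chol_CA_0 and Chol_CA_1. Chol_CA_0 and Chol_CA_1 both had a negative length trend. Fits with a length trend term, or split by its sign, were run over all genes, but the cause of these Kupffer counts was not tested. The summed Kupffer level was 1264 to 3291 CPM in Chol_CA and 631 to 1142 CPM in CA.

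**Figure D3:**
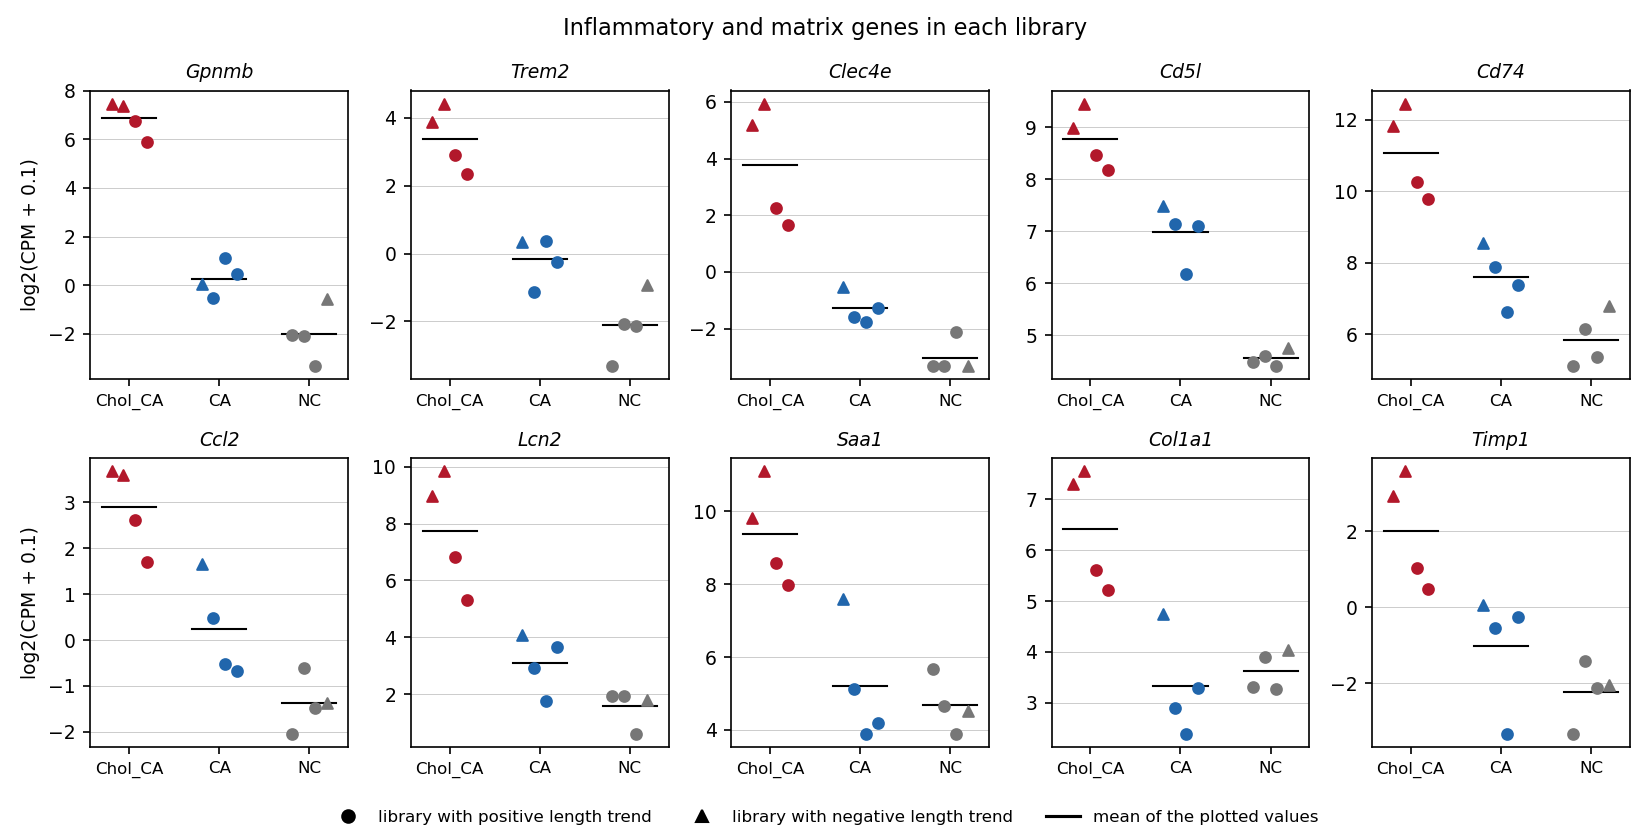
Each panel shows 1 gene as log2(CPM + 0.1) in each library, with Chol_CA left, CA in the middle and NC right, a bar at the mean of the plotted values and a triangle for libraries with a negative length trend. All 4 Chol_CA libraries lie above all 4 CA libraries in each panel, and the triangles of Chol_CA_0 and Chol_CA_1 lie above the circles of Chol_CA_2 and Chol_CA_3.

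Other leukocyte lists rose to a varying extent. Genes of dendritic cells and MHC class II were higher in 11 of 14 tested, with a median of 2.30, and in 6 without both Chol_CA_0 and Chol_CA_1. Cd74, the invariant chain, had 3640.4, 5598, 1228 and 878 CPM in Chol_CA, against 378, 237, 98.6 and 165 CPM in CA (3.69 ± 0.60, adjusted p = 0.000292), and the log2 fold change was 2.28 without both. Of 17 neutrophil markers 6 passed the filter on low counts, which high values in Chol_CA alone could let a gene pass, so their number higher is not read as a result. S100a8, a calcium-binding protein of neutrophils, had 3.71, 17.3, 4.40 and 1.41 CPM in Chol_CA, against 1.76, 1.06, 0.592 and 1.38 CPM in CA. Chol_CA_1 was by far the highest, and Chol_CA_3 lay within the CA range. Mpo, the granule peroxidase of neutrophil precursors and some macrophages, had 80 reads in Chol_CA and 0 in CA, at least 27.3-fold higher. Of 24 T and NK cell markers 14 passed that filter, so the same limit holds for them. Of those tested 4 rose, with a median of 1.22. That number moved between 1 without CA_2 or Chol_CA_1 and 7 without CA_0, it was 2 without CA_1, CA_3 or Chol_CA_0, and it was 1 without both Chol_CA_0 and Chol_CA_1. Cd4 had 6.62, 9.51, 3.81 and 6.06 CPM in Chol_CA, against 1.88, 0.589, 0.592 and 1.27 CPM in CA (2.57 ± 0.42, adjusted p = 0.000313). Among B and plasma cell markers 1 of 8 tested was called, Cd22 (1.65 ± 0.36, and not called at 1.29 without Chol_CA_0 and Chol_CA_1). The median was 0.42, and the share is no larger than the 13.4% of all genes.

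Of 38 chemokines and inflammatory mediators 28 passed the filter on low counts, which high values in Chol_CA alone could let a gene pass. Of those tested 20 rose and 1 fell, with a median of 1.71, and for that reason the number higher is not read as a result. The number that rose was 13 without CA_2, 13 without Chol_CA_1 and 9 without both Chol_CA_0 and Chol_CA_1. Ccl2, which recruits monocytes, had 12.7, 12.04, 6.06 and 3.14 CPM in Chol_CA, against 3.06, 1.30, 0.592 and 0.531 CPM in CA, so that the lowest Chol_CA library barely cleared the highest CA library (2.64 ± 0.58, adjusted p = 0.00304, and 3.39 without CA_0). Without both Chol_CA_0 and Chol_CA_1 the value was 1.79 and did not pass. Tnf had 9.14, 11.1, 2.74 and 2.16 CPM in Chol_CA, against 0.470, 0.589, 0.197 and 0.425 CPM in CA (3.87 ± 0.62, adjusted p = 0.000263). Nos2, inducible nitric oxide synthase, had 234 reads in Chol_CA and 3 in CA, a ratio of 79.7-fold with a counting interval of 27.0 to 389. Ccl9 was the member that fell (-0.90 ± 0.23, adjusted p = 0.00753), most clearly in Chol_CA_2 and Chol_CA_3 at 62.7 and 53.1 CPM, against 138 to 194 CPM in CA.

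Acute phase genes, which hepatocytes make under cytokines, rose in 13 of 25 and fell in 1, with a median of 0.83. Without both Chol_CA_0 and Chol_CA_1, 6 rose and 0 fell. The size differed greatly within the list. Lcn2, lipocalin 2 (chr2:32384633-32388252, minus strand), had 498, 918, 113 and 39.2 CPM in Chol_CA, against 16.9, 7.42, 3.26 and 12.5 CPM in CA (5.29 ± 0.81, adjusted p = 0.000177), and the log2 fold change was 2.95 without both Chol_CA_0 and Chol_CA_1. Saa1, serum amyloid A, had 903, 2204, 380.3 and 254 CPM in Chol_CA, against 192, 34.97, 14.8 and 18.2 CPM in CA. CA_0 stood out within CA, and the log2 fold change of 3.85 ± 0.81 (adjusted p = 0.0022) was 5.37 without CA_0 and 2.98 without Chol_CA_1. Without both Chol_CA_0 and Chol_CA_1 it was 2.31 and did not pass. The fibrinogen chains Fga (-0.06), Fgb (0.06) and Fgg (0.07) did not pass. Saa1 and Saa2 are near copies and may share reads.

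Interferon-stimulated genes rose in 8 of 30 tested, with a median of 0.58. The number that rose was 3 without CA_2, 4 without CA_3, 4 without Chol_CA_1 and 0 without both Chol_CA_0 and Chol_CA_1. The oligoadenylate synthetases, sensors of double-stranded RNA, made up most of the group, with Oas3 higher by 1.92, Oas2 by 1.71, Oasl2 by 1.61, Oas1a by 1.57 and Oasl1 by 0.83. Gbp5, a guanylate-binding protein, had 25.04, 29.2, 6.84 and 4.33 CPM in Chol_CA, against 4.23, 3.41, 0.987 and 3.08 CPM in CA (2.48 ± 0.56, adjusted p = 0.00362). Classic type I interferon targets such as Ifit1 (-0.33) and Rsad2 (-0.76) did not pass.

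Promoter windows of these genes were searched for the interferon response letters (GAAA, any pair of bases, GAAA) and for the NF-kappaB letters (GGGA, any base, TTTCC) on both strands. The first were in 3 of the 7 called interferon genes with a window (Oas1a, Oas3 and Gbp5), in 13 of 23 tested members with a window and in 3.44% of all promoter windows. The second were in 1 of 13 called chemokine genes with a window (Cxcl2), in none of 11 called acute phase genes and in 0.411% of all promoter windows. The match of Oas3 starts 75 bases before its start site and is not shown. The other stretches are shown, with matches in capitals, because each belongs to a gene that rose and holds the first letters, the second or both. They lie at GRCm38 chr5:90903742-90903871 (plus strand, Cxcl2), chr5:120907526-120907605 (minus strand, Oas1a) and chr3:142496709-142496926 (plus strand, Gbp5), and each is written along its gene's strand and ends before the start site. Oas1a has overlapping matches that start 20 and 14 bases before its start site, and both Gbp5 matches lie on the opposite strand. A match is only a description of these letters.
Cxcl2: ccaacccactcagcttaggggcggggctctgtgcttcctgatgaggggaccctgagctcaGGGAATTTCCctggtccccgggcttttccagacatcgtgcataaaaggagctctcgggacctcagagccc
Oas1a: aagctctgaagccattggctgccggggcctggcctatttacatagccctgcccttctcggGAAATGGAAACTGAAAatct
Gbp5: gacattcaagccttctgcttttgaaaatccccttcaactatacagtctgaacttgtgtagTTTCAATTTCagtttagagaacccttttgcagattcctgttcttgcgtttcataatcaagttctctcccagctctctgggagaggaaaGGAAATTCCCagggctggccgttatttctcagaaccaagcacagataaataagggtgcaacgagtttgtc

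Matrix and stellate cell genes rose in 34 of 39 tested and fell in none, with a median of 1.47. Leaving out single libraries gave 31 or more, and leaving out both Chol_CA_0 and Chol_CA_1 gave 24. Col1a1, a chain of the main scar collagen (chr11:94936224-94953042, plus strand), had 159, 188, 49.0 and 36.9 CPM in Chol_CA, against 26.6, 7.30, 5.13 and 9.67 CPM in CA and 12.6 CPM on average in NC. All Chol_CA libraries were above all CA libraries (3.16 ± 0.54, adjusted p = 0.000443), with values of 3.88 without CA_0 and 1.85 without both Chol_CA_0 and Chol_CA_1. Col3a1 had 241, 214, 96.5 and 91.6 CPM in Chol_CA, against 51.8, 27.9, 17.7 and 24.3 CPM in CA (2.40 ± 0.35, adjusted p = 0.000124). Timp1, an inhibitor of matrix proteases, rose by 3.29 ± 0.69 (adjusted p = 0.00211, but not passing at 1.55 without both Chol_CA_0 and Chol_CA_1) and the crosslinking enzyme Lox by 2.70 ± 0.49. Lrat, which stores vitamin A in quiescent stellate cells, ran in another order, with 18.9, 20.6, 32.5 and 31.7 CPM in Chol_CA, against 14.0, 8.24, 7.80 and 7.54 CPM in CA. In that gene the higher Chol_CA values were in Chol_CA_2 and Chol_CA_3 (1.47 ± 0.26, adjusted p = 0.000581). Ctgf, a growth factor target of TGF-beta, did not pass (0.08), nor did fibronectin, Fn1 (-0.05).

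Of 14 bile duct genes tested, 2 were higher (Tff3 and Sox9) and 2 lower (Prom1 and Krt23), where 13.4% of all genes rose and 7.8% fell. The median was 0.36, with 11 changes positive and 3 negative. The number higher was 1 without CA_2, CA_3, Chol_CA_0 or Chol_CA_2. Krt19, the keratin of bile duct cells, had 1.99, 4.01, 4.30 and 1.84 CPM in Chol_CA, against 3.76, 1.53, 1.58 and 2.23 CPM in CA, which overlap fully (0.43 ± 0.55, adjusted p = 0.654). Prom1, a membrane protein of progenitor and duct cells, had 1.72, 1.03, 2.44 and 0.974 CPM in Chol_CA, against 11.4, 45.9, 45.5 and 46.7 CPM in CA, with a wide gap between the diets (-4.58 ± 0.53, adjusted p = 1.18e-05). It averaged 1.91 CPM in NC, 0.985 CPM in HS and 0.839 CPM in HS_Chol, so the high side was CA. Endothelial markers gave no call in 20 genes, with a median of 0.07. At an unadjusted p under 0.05 edgeR gave 3 higher (Lyve1, Cd34 and Plvap) and 0 lower, DESeq2 called 2 higher and 0 lower, and leaving out CA_0, Chol_CA_0, Chol_CA_2 or Chol_CA_3 gave 1 higher.

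Among general processes, lysosomal genes rose in 13 of 26, with a median of 0.52, in 8 without Chol_CA_1 and in 4 without both Chol_CA_0 and Chol_CA_1. Ctss, a cathepsin of antigen-presenting cells, rose by 2.73 and Lgmn, an asparaginyl protease, by 1.28 ± 0.22 (adjusted p = 0.000433), while Lamp1 (-0.03) and Ctsl (0.08) did not pass. Cell cycle genes rose in 7 of 28 tested, with a median of 0.92. The 7 were the replication helicase subunits Mcm2, Mcm3, Mcm5, Mcm6 and Mcm7, the clamp Pcna and the reductase Rrm2, while the mitotic genes Mki67 (1.41) and Top2a (1.10) did not pass. Their number was 2 without CA_1, CA_2 or Chol_CA_0 4 without CA_0 or Chol_CA_1, and 0 without both Chol_CA_0 and Chol_CA_1. Immediate early genes, which handling of tissue can induce, gave 3 calls upward in 17 tested (1 without Chol_CA_1), and clock genes, which follow the hour of sampling, gave 1 in 15, shares close to or below the 13.4% of all genes. The clock gene was Bhlhe41, a repressor (2.21), which was not called without CA_0 (1.90), CA_1 (1.83), CA_3 (2.42), Chol_CA_0 (2.16), Chol_CA_1 (2.13) or Chol_CA_2 (2.18). No marker of pancreas, muscle, fat or blood was called among the 6 tested by edgeR or DESeq2 (1 higher and 0 lower at an unadjusted p under 0.05 by edgeR), and 7 of the 21 in that list had no read in either diet.

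**Figure D4:**
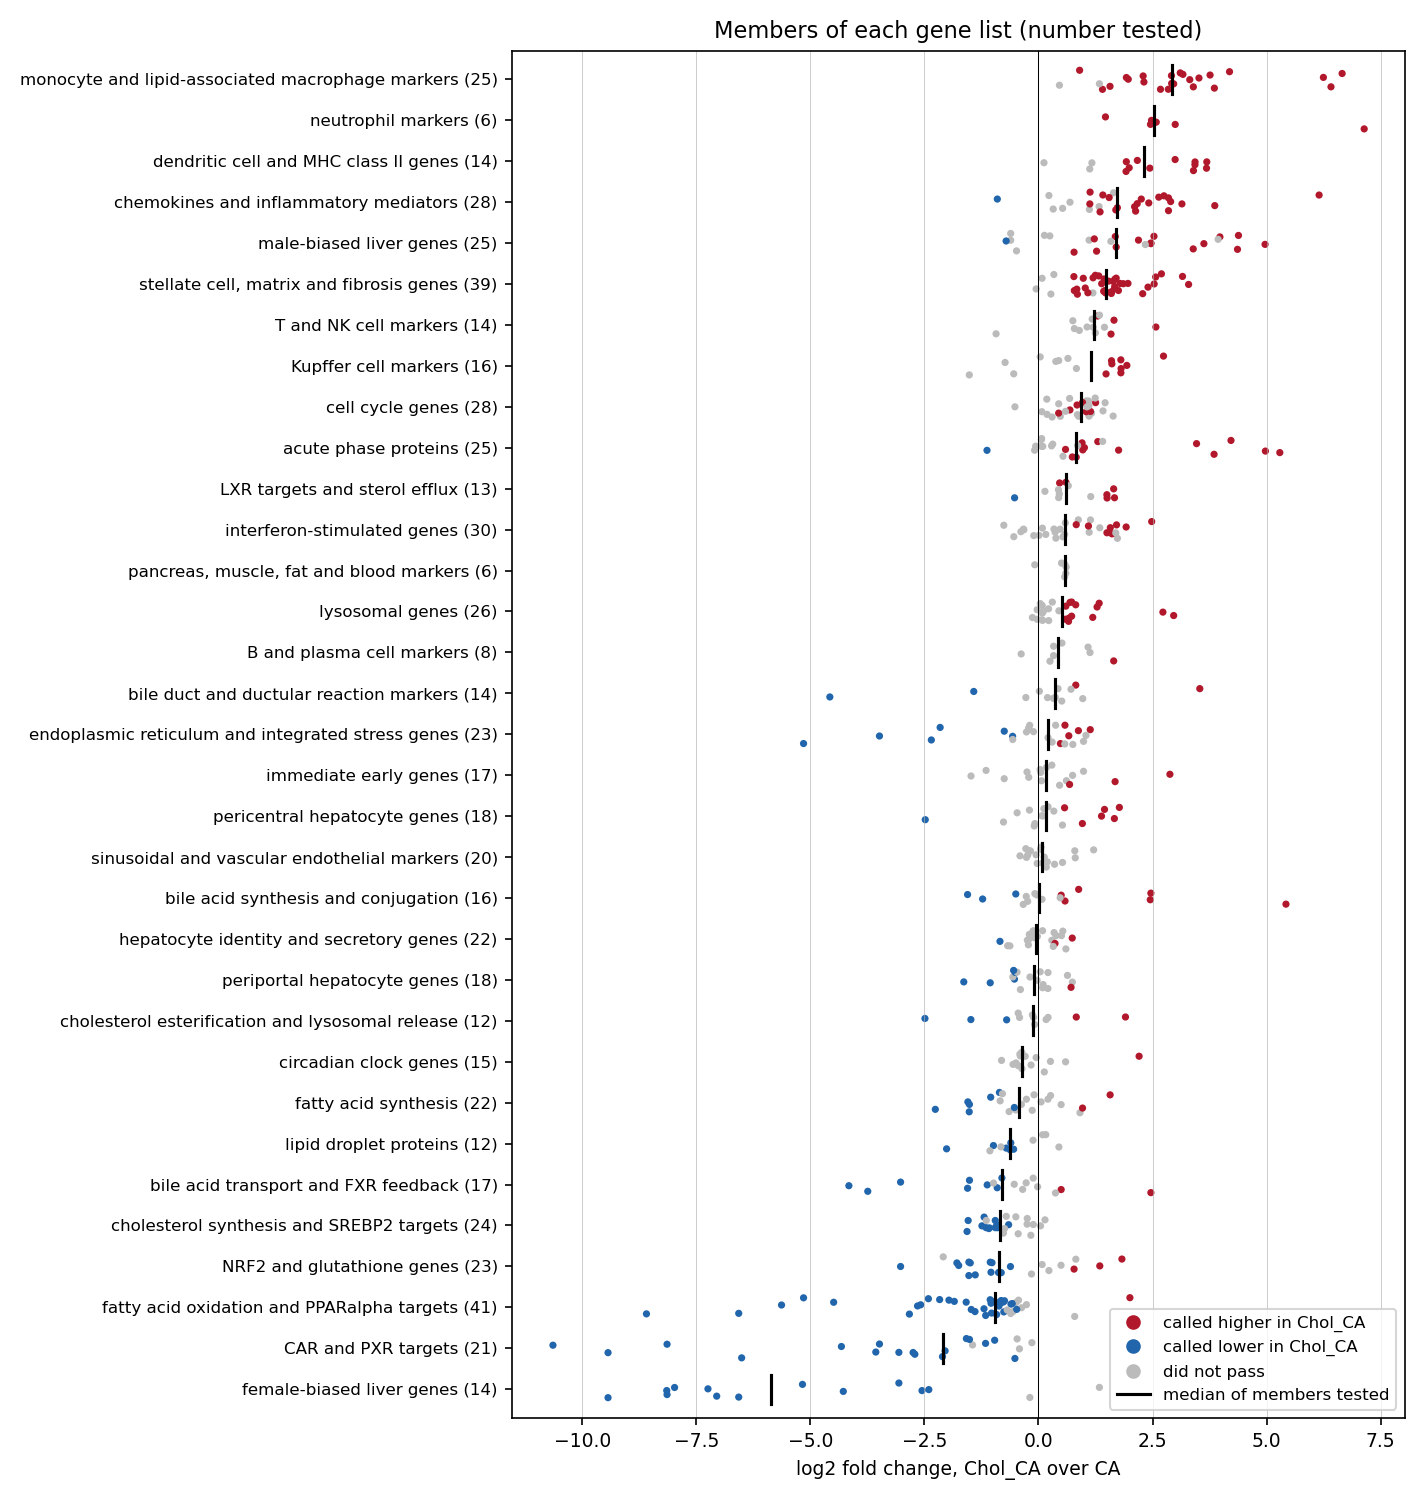
Each row is a gene list with the number of members tested, each point is a member by its log2 fold change (Chol_CA over CA), red and blue points passed the test and grey points did not, and black bars are medians. Rows are sorted by median, with monocyte and macrophage markers on top at 2.92 and female-biased genes at the bottom.

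Whether cholesterol acted alike on another base diet was examined as a difference of differences, Chol_CA minus CA less HS_Chol minus HS. That difference passed in 311 genes as higher with cholic acid (2.47% of those tested) and in 445 as lower (3.53%). With single libraries left out the numbers ran from 130 to 608 higher and from 318 to 707 lower, the lowest without CA_2 and the highest without CA_0. The number higher was also under 311 by over 1.5 times without CA_3 (156), HS_Chol_1 (136), HS_Chol_0 (191), HS_Chol_2 (204) or Chol_CA_0 (187). Without single HS libraries, 1 of which has conflicting labels, they were 245 to 281 higher and 356 to 423 lower. The HS_Chol libraries carried 673 to 900 light-strand mitochondrial tRNA reads per 1000000 heavy-strand mRNA reads, against 13.3 to 83.4 in Chol_CA and 37.0 to 63.3 in CA. In this measure the HS_Chol libraries stand apart from all others, and its part in the differences was not tested.

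Oxidation and drug metabolism genes differed between the base diets more often than any other list used here. The difference was lower with cholic acid in 27 of 41 PPARalpha targets and in 14 of 21 CAR and PXR targets, and higher in none of either. Cyp4a14 averaged 2.39 ± 1.59 CPM in Chol_CA and 908 ± 317 CPM in CA (SD, n = 4 each), while it averaged 605 CPM in HS_Chol and 45.8 CPM in HS. The directions were thus opposite, and the difference was -12.32 ± 1.06 on the log2 scale (adjusted p = 4.55e-07). Cyp3a11 did the same, with a change of -2.75 on cholic acid and 1.99 on sucrose (difference -4.74 ± 0.40, adjusted p = 3.97e-07).

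Among genes higher with cholic acid, Cyp7a1 changed in the same direction on both base diets, by 5.43 on cholic acid and 1.81 on sucrose, and the difference of 3.62 ± 0.71 passed (adjusted p = 0.00357). Gpnmb changed by 6.66 on cholic acid, while its value of 1.13 on sucrose did not pass, at 0.994 CPM in HS_Chol and 0.449 CPM in HS. The difference was 5.52 ± 1.06 (adjusted p = 0.00282). Serpina12 changed by 4.38 on cholic acid and -1.25 on sucrose (difference 5.63 ± 0.49, adjusted p = 5.03e-07). Male-biased genes gave 11 of 25 higher and 1 lower, matrix genes 9 of 39 higher, and macrophage markers 7 of 25 higher. For cholesterol synthesis the difference was higher in 4 of 24 genes and lower in none. Sqle is the example, since it changed by -4.13 on sucrose, with 2.70 CPM in HS_Chol and 47.2 CPM in HS, and by -1.54 on cholic acid, with 1.36 CPM in Chol_CA and 4.08 CPM in CA (difference 2.58 ± 0.60, adjusted p = 0.0139). Abcg5 changed less on cholic acid than on sucrose (0.60 and 1.63, difference -1.03 ± 0.26, adjusted p = 0.0227), with a CA mean of 208 CPM and an HS mean of 92.7 CPM.

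**Figure D5:**
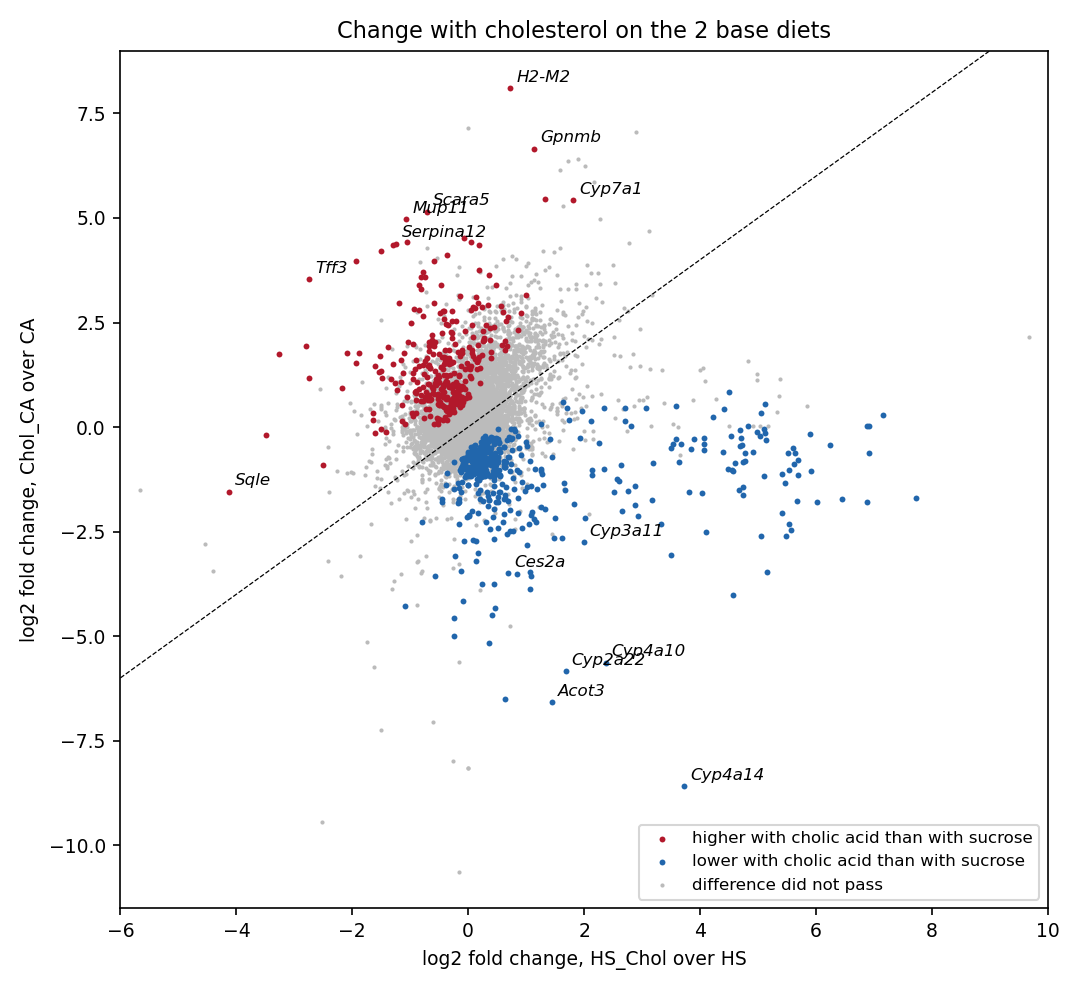
Each point is a gene tested, with the log2 fold change of Chol_CA over CA on the vertical axis and of HS_Chol over HS on the horizontal axis, and the dashed line marks equal change. Red points (311) and blue points (445) are genes whose difference between the base diets passed the test, and Cyp4a14 lies lowest among the labelled genes at -8.60 on cholic acid and 3.72 on sucrose.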

How the data were processed

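The deposited table holds read counts per gene symbol that the authors made from single-end 50-base reads of stranded total RNA; STAR 2.6.1c and mm10 are named per the submitters' processing notes, while the counted strand and annotation release are not given in the sources used here. Columns were matched to diets by name, 20 of 23 were used and 3 were not used here. From the counts, edgeR 4.0.16 in R 4.3.3 filtered low genes (filterByExpr), scaled by TMM and fitted a robust quasi-likelihood model with 1 mean per diet over all 20 libraries. Genes were called at a Benjamini-Hochberg adjusted p under 0.05 over all 12595 genes. DESeq2 1.42.0 served as an alternative. On data simulated for Chol_CA against CA, 57% of 2-fold and 93% of 4-fold changed genes were recovered. The simulation changed few genes and gave each gene the same spread in every diet. It thus lacked the differences between Chol_CA libraries described above, and its rates may not hold for these data. Counting intervals are 95% and cover counting error only, with a floor of 3 reads over a group for zeros. The rule for named genes took the 10 largest rises and 10 largest falls among called genes with at least 5 CPM in the higher diet and no overlap (predicted models and pseudogenes left out), the called member with the smallest adjusted p in each direction of every list, the 4 largest differences of each sign between base diets, and a set of well-known genes such as Cyp7a1, Sqle and Trem2. Other list members named here were chosen after their values were seen, to show the range of a list, and a few genes are not reported here. The members and lists were chosen with earlier results of these data known. Gene positions are from GENCODE M21 and promoters from RefSeq, GRCm38.p6.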

Additional observations from a re-analysis of the deposited data

Results flagged for a closer look

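In groups of 4 libraries, the highest or lowest library was set against Dixon's 95% critical value of 0.829, and 18 of 238 groups passed it, where chance gives about 1 in 20. In Chol_CA, the libraries that stood apart were Chol_CA_0 for Cyp4a14 (4.77 CPM) and Acot3 (1.59 CPM), Chol_CA_3 for Glul (824 CPM), and Chol_CA_1 for Serpina12 (180.4 CPM), Tff3 (7.79 CPM), Mup11 (176 CPM) and the summed esterification list (1859 CPM). In CA, CA_2 stood apart for Cyp7a1 (1.38 CPM). CA_0 stood apart for H2-M2 (0.118 CPM), Scara5 (2.12 CPM), Hmox1 (43.8 CPM), Saa3 (9.76 CPM), Oas1a (2.47 CPM), Prom1 (11.4 CPM), Manf (113 CPM), Saa1 (192 CPM), Mup11 (4.58 CPM) and the summed LXR list (22338 CPM).

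The change with cholesterol differed between the cholic acid and sucrose base diets in 33 named genes, as log2 differences that passed the test across all genes. Positive differences were found for H2-M2 (7.39), Tff3 (6.28), Mup11 (6.04), Scara5 (5.87), Serpina12 (5.63), Gpnmb (5.52), Tmem28 (4.12), Cyp7a1 (3.62), Trem2 (3.57), Cxcl14 (3.28), Cd4 (3.00), Sqle (2.58), Cyp8b1 (2.15), Glul (1.82) and Col6a3 (1.38). H2-M2 lost the call in 9 of the fits that left out 1 library. Negative differences were found for Cyp4a14 (-12.32), Acot3 (-8.02), Cyp4a10 (-8.00), Cyp2a22 (-7.52), Cyp2c55 (-7.14), Cyp3a11 (-4.74), Prom1 (-4.32), Ces2a (-4.17), Slco1a4 (-4.07), Cyp2a5 (-3.26), Ces1d (-3.21), Ephx1 (-3.16), Agxt2l1 (-1.97), Me1 (-1.46), Akr1d1 (-1.42), Decr1 (-1.39), Keg1 (-1.23) and Abcg5 (-1.03).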

How the results depend on the processing

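Numbers of genes higher and lower in Chol_CA, 1693 and 983, moved by over 1.5 times in some settings: 1063 and 523 in a fit of the 2 diets alone, 728 and 222 with a minimum change of 1.5-fold, 361 and 114 among libraries with a negative length trend (2 against 1, so the lone CA library is assumed to vary like the other groups), 716 and 522 without Chol_CA_0 and Chol_CA_1 (chosen after seeing the data), and 1716 lower among libraries with a positive length trend. With single libraries left out, numbers ran from 960 to 1939 higher and 718 to 1279 lower, and for the difference between base diets from 130 to 608 higher and 318 to 707 lower. Other size factors, upper quartile scaling, DESeq2, both filters and a length trend term gave numbers within 1.5 times for those higher and lower. Libraries with the same replicate number showed no clear pairing (correlations of 0.0811, -0.201, 0.337 and -0.0606), and not every library correlated best with its own number. Libraries also differed in other ways, such as the length trend, so these correlations cannot exclude a pairing. With the replicate numbers as a replicate block, 1570 genes were higher and 849 lower, and in the 2 diets alone 1045 and 397. Of 76 named genes called, 36 were called under every alternative in which they could be tested; some were too low to test in several. Directions turned among libraries with a negative length trend for Cyp2a5 (0.58), Serpina3m (0.53), Srebf1 (-0.05003), Scd1 (-1.02) and Krt19 (-0.35), among those with a positive one for Fasn (0.78), without Chol_CA_0 and Chol_CA_1 for Fasn (0.67), and with the block for Scd1 (-0.000653, and -0.10 in the 2 diets alone). With single libraries left out, Fasn ran from -1.02 to 0.21 and Scd1 from -0.29 to 0.33. The cause was not tested.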

Other observations

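Further genes, chosen after their values were seen, moved with the groups above. Retinoid enzymes were lower in Chol_CA. Retsat, retinol saturase, averaged 85.7 CPM in Chol_CA and 392 CPM in CA (log2 fold change -2.19), Rdh16, a retinol dehydrogenase, 10.2 CPM in Chol_CA and 51.4 CPM in CA (-2.33), and Aldh1a1, a retinaldehyde dehydrogenase, 478 CPM in Chol_CA and 1331 CPM in CA (-1.48). The conjugating enzyme Ugt1a9 averaged 2.86 CPM in Chol_CA and 92.1 CPM in CA (-5.01), and the glutathione transferases Gstt3 (-3.08) and Gstt2 (-2.72) fell as well.

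Phagocyte oxidase genes were higher in Chol_CA. Cybb, the catalytic subunit, averaged 167 CPM in Chol_CA and 26.5 CPM in CA (2.66), and its partners Cyba (2.75) and Ncf1 (2.22) rose too. Serpina1e, a male-biased antitrypsin of a family of near copies, averaged 2684 CPM in Chol_CA, 117 CPM in CA and 5574 CPM in NC (4.52). The deiodinase Dio1 had a log2 fold change of 2.55.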
